A study of Mus musculus with 24 samples.

Results

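Glycolysis and the transport of its fuel and waste were followed through 10 genes of the mouse fibroblast line 3T9: Slc2a1, Hk2, Pfkl, Pfkp, Pfkfb3, Pgk1, Eno1, Eno2, Ldha and Slc16a1. These are the glycolysis genes on a list drawn up by name, with earlier results of these data known. All 10 of them are among the 21671 genes in the table of expression values. The cells, an immortalised line, had been infected with an empty vector or with 1 of 3 forms of MycER and held in OHT during 8 h or 4 h, with 3 RNA-seq libraries in each of 8 groups. MycER is the transcription factor Myc joined to the hormone-binding part of the oestrogen receptor, and OHT (4-hydroxytamoxifen) switches it on. The title of the series asks how non-specific and sequence-specific contacts of Myc with DNA are required for gene regulation.

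The groups are MycER WT, MycER HEA, MycER RA and empty vector (called WT, HEA, RA and EV here), each at 8 h and at 4 h in OHT. HEA and RA are mutant forms, and the labels do not say which residues they change. As background on these mutants, HEA alters residues that read the bases of the E-box, and RA alters arginines that touch the DNA backbone. All groups, EV included, received OHT and still carry the cells' own Myc gene, so a MycER form was measured on top of endogenous Myc, and libraries without OHT were not analysed here. The promoter that drives MycER and the number of clones behind each infected population are not stated in the labels.

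Glycolysis splits glucose into pyruvate in the cytosol, and dividing cells turn much of the pyruvate into lactate and export it. Its flux is set at a few steps: uptake, the trapping of glucose by hexokinase, and phosphofructokinase, which answers to the signal molecule fructose 2,6-bisphosphate. Myc is known as an activator of many genes of this pathway, Ldha among the first described, and binds DNA with its partner Max at the E-box CACGTG and at variants of it such as CACGCG. HIF, the factor of the response to low oxygen, acts on many of the same genes through sites with the core ACGTG.

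The promoter windows of all 10 genes were found in RefSeq's table for the mouse assembly GRCm38.p6, 14 windows in all, each running from 250 bases before to 50 bases after an annotated transcript start. CACGTG, which reads the same on both strands, was in windows of 3 of the 10 genes, Pfkfb3, Ldha and Slc16a1. Of the 9032 tested genes with a window, 11.9% held it. The variant CACGCG, or CGCGTG on the other strand, was in windows of 4 genes, Pfkp, Eno1, Ldha and Slc16a1, against 20.4% of tested genes. The looser CANNTG, which takes in CACGTG, was in windows of 7 of the 10 genes, against 66.4% of tested genes. ACGTG, or CACGT on the other strand, lies within CACGTG and was in windows of 6 genes, against 29.6%. A match describes the letters of a window and shows no binding.

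Printed below are the windows with CACGTG and, for contrast, that of Eno2, the only gene of the 10 that fell in WT and a gene with neither form of the E-box in its window. All are written 5′ to 3′ on the strand of the gene, with the E-box and its CACGCG variant in capitals, on either strand. Slc16a1 has its window at chr3:104638414-104638713 on the plus strand. The first Ldha window is at chr7:46845554-46845853 on the plus strand, the second Pfkfb3 window at chr2:11502041-11502340 on the minus strand and the Eno2 window at chr6:124769624-124769923 on the minus strand.
Slc16a1: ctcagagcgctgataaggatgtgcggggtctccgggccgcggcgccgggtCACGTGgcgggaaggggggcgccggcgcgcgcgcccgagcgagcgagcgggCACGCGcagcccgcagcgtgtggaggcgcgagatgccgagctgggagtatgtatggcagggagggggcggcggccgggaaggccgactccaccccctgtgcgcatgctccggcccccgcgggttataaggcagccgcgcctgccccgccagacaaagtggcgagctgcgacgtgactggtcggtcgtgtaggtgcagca
Ldha: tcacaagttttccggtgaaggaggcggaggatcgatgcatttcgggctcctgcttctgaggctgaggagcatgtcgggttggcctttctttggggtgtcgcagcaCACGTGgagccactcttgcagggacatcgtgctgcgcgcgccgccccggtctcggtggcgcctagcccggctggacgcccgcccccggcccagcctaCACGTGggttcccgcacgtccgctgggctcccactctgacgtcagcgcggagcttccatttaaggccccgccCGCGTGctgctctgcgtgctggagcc
Pfkfb3: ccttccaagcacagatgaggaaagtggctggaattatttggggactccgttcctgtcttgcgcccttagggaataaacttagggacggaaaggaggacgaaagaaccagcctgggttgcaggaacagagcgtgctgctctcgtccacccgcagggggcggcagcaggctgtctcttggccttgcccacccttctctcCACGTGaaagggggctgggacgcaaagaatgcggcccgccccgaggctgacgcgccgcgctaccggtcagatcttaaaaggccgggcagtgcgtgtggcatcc
Eno2: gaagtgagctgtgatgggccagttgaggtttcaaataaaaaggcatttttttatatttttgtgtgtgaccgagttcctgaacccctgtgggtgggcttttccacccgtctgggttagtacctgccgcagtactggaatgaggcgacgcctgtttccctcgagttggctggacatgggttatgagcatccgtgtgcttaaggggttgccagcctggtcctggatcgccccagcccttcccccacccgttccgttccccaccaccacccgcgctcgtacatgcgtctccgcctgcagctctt

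Counting the base before the start as -1, CACGTG begins at -200 in Slc16a1, at -145 and -48 in Ldha and at -53 in Pfkfb3. The Slc16a1 window also holds CACGCG at -149, and the Ldha window holds CGCGTG at 25 after the start. Pfkfb3 and Ldha each have another annotated start whose window lacks CACGTG, that of the first start in Pfkfb3 and of the second in Ldha. Which start was used in these cells bears on both matches and was not measured.

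**Figure D1:**
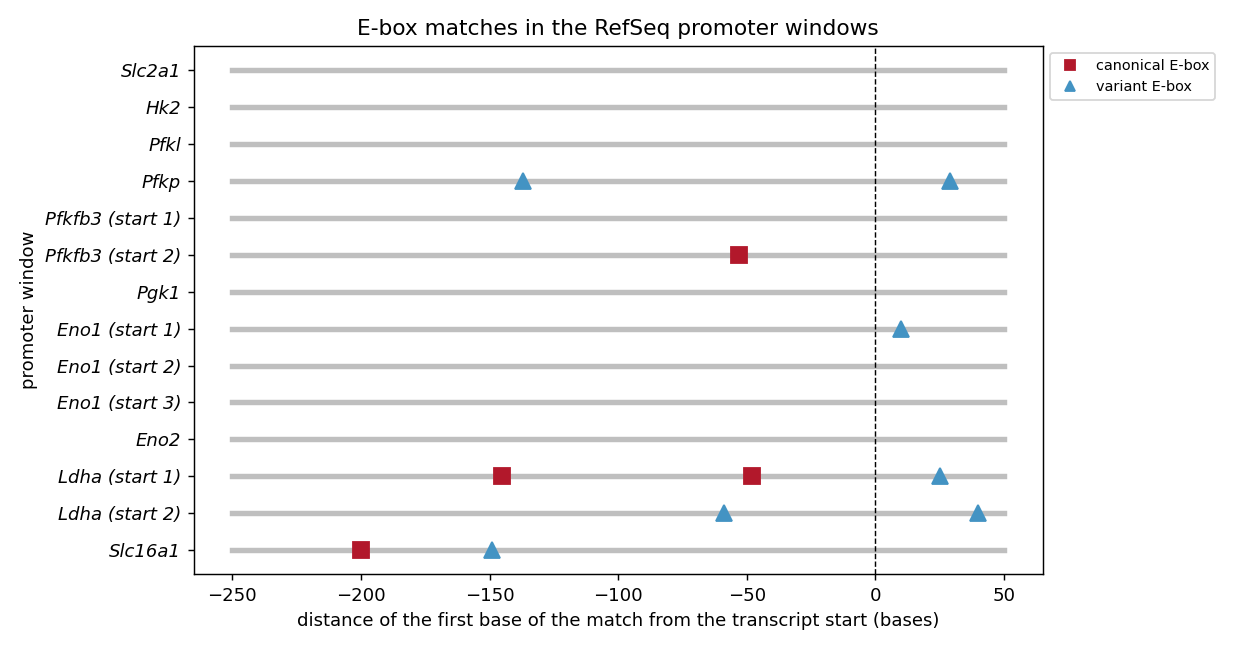
Position of CACGTG (squares) and of CACGCG or CGCGTG (triangles) in the 14 promoter windows of the 10 genes, in bases from the annotated transcript start (dashed line). Squares appear in 3 windows, those of Slc16a1, of the first Ldha start and of the second Pfkfb3 start.

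Expression is given as RPKM, that is, reads divided by the length of the gene and by the size of the library. Libraries held 9.82 to 12.8 M recovered reads, with group means of 10.1 to 11.7 M, and the lowest mean was that of WT at 4 h. Esr1, the gene of the oestrogen receptor fused to Myc in the constructs, averaged 11.2 ± 2.34 RPKM for WT, 10.2 ± 0.88 for HEA and 11.2 ± 0.53 for RA at 8 h, against 0.189 ± 0.097 for EV (SD, n = 3 each), as labelled. Myc, for which it is not stated whether reads of the construct count, averaged 38.8 ± 8.996 RPKM in WT and 58.2 ± 1.85 in EV at 8 h (SD, n = 3 each; adjusted p = 0.00754, limma). Of 10 fibroblast markers 9 were at 1 RPKM or more in all 24 libraries and Thy1 stayed at or below 0.343. Among 5 epithelial markers 4 stayed below 1 RPKM in all libraries, with Epcam listed at 0 throughout, and Krt19 reached 1.08. All 4 endothelial and all 4 muscle markers stayed below 1 RPKM, with Myod1 listed at 0 throughout. Ptprc, a marker of blood cells, reached 0.204. Of the macrophage and blood markers, Cd68 was at 7.40 to 15.4 and Csf1r at 0.842 to 2.41 RPKM, and Emr1 was listed at 0 in all libraries. Of the 4 adipocyte markers, Fabp4 was at 1.46 to 6.29 RPKM, while Adipoq, Plin1 and Cidec had medians of 0 and reached at most 0.106. The 3 libraries farthest from their group means were WT at 4 h replicate 3, WT at 8 h replicate 3 and EV at 4 h replicate 2.

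Over the 24 libraries the 10 genes spanned a wide range of levels. Pgk1 averaged 117.6 RPKM, Ldha 87.8, Slc2a1 61.7, Slc16a1 58.6, Pfkl 53.9, Hk2 34.7, Eno1 16.3, Pfkfb3 7.50, Pfkp 4.24 and Eno2 2.86. Neighbours in that order could not be told apart in every group: the libraries of Slc2a1 and Slc16a1 overlapped in HEA at both times, and those of Pfkfb3 and Pfkp overlapped in HEA at both times and in RA at 4 h. Those of Pfkp and Eno2 overlapped in HEA and RA at 8 h, and Slc16a1 and Pfkl overlapped in EV. In WT, Slc16a1 stood above Slc2a1 at both times with no overlap, whereas in EV its libraries lay below those of Slc2a1. The genes also differed in how much they moved. The ratio of the highest to the lowest library was 5.41 for Pfkfb3, 2.97 for Eno2, 2.14 for Hk2 and 2.03 for Slc16a1, and it was smallest for Pgk1, at 1.26.

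**Figure D2:**
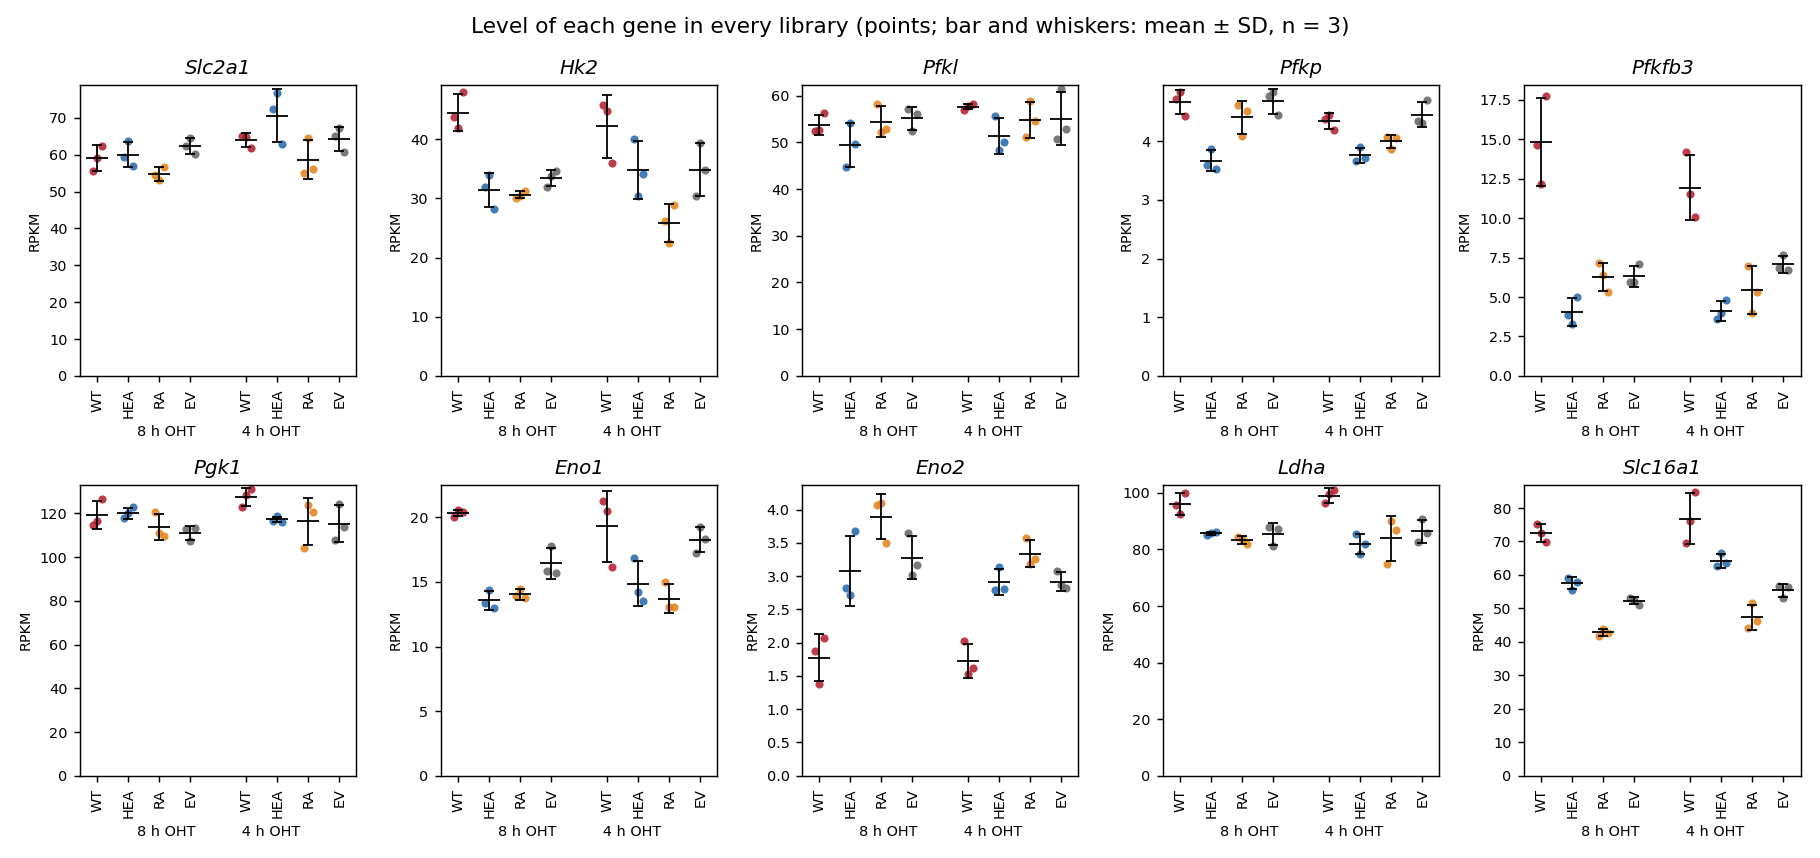
RPKM of each of the 10 genes in all 24 libraries (points), with the mean and SD of each group of 3 (bar and whiskers), WT, HEA, RA and EV at 8 h in the left block of each panel and at 4 h in the right block. Pfkfb3 lay between 12.2 and 17.7 RPKM in WT at 8 h, above all EV libraries, and Eno2 between 1.38 and 2.07, below them.

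Against EV at 8 h, 5 of the 10 genes rose with MycER WT and 1 fell. Pfkfb3, Slc16a1, Hk2, Eno1 and Ldha rose and Eno2 fell. Among all 12268 tested genes 15.2% rose and 20.1% fell in the same comparison. The median log2 fold change of the 10 genes was 0.13, against -0.02 over all tested genes. Calls rest on limma with p-values adjusted over all tested genes, at a threshold of 0.05, and the fold changes are on the scale of log2(RPKM + 0.5), which understates the change of low genes. As these are bulk samples, fewer cells that express a gene and less RNA per cell cannot be told apart. At 4 h 3 genes rose (Pfkfb3, Slc16a1 and Ldha) and Eno2 fell, where 11.6% of all tested genes rose and 14.4% fell. The median was 0.11 at 4 h, against -0.01 over all tested genes.

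In HEA fewer of the 10 rose than in WT. At 8 h none of the 10 rose and 3 fell, Pfkfb3, Pfkp and Eno1, where 20.2% of all tested genes rose and 27.5% fell. At 4 h the same 3 fell and Slc16a1 rose, where 17.7% rose and 25.5% fell. The counts of lower genes in HEA at both times and of higher genes at 4 h are near these shares. They are no result about the 10 genes as a set. How the 0 higher at 8 h compares with 20.2% was not tested. RA changed few genes of the whole table. Its counts of lower genes among the 10 stood above the shares of all tested genes, which was not tested, and alternatives often lost these calls. Slc16a1 fell at 8 h, where 1.49% of all tested genes rose and 1.29% fell. Slc16a1, Hk2 and Eno1 fell at 4 h, where 2.58% rose and 2.73% fell. The median log2 fold change of the 10 genes was -0.09 in HEA and -0.06 in RA at 8 h, and -0.04 in HEA and -0.14 in RA at 4 h. Over all tested genes it lay between -0.06 and 0.02 in these 4 comparisons. The 3 forms share the EV libraries of their time, so their fold changes against EV are not independent of each other. Beside the count of 0 higher genes in HEA and in RA, limma at an unadjusted p under 0.05 gave 4 of the 10 in HEA and 3 in RA at 8 h and 4 in RA at 4 h, in either direction, and voom called 3, 1 and 3. Shares of all tested genes at that unadjusted threshold or by voom were not counted, so these numbers are a description only. The counts of calls in RA changed with single libraries: leaving 1 out gave 0 to 1 at 8 h (0 without EV replicate 1, 2 or 3 or RA replicate 1 or 3) and 0 to 2 at 4 h (0 without EV replicate 2 or 3). The count in HEA at 4 h was 2 without EV replicate 2 or HEA replicate 2. The fold changes of the genes called in RA stayed negative in every alternative. That of Slc16a1 at 8 h lay between -0.30 and -0.25 on the log2 scale. In all, 7 of the 10 genes passed in at least 1 of the 6 comparisons with EV, as did 70.7% of all tested genes, and Slc2a1, Pfkl and Pgk1 passed in none.

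**Figure D3:**
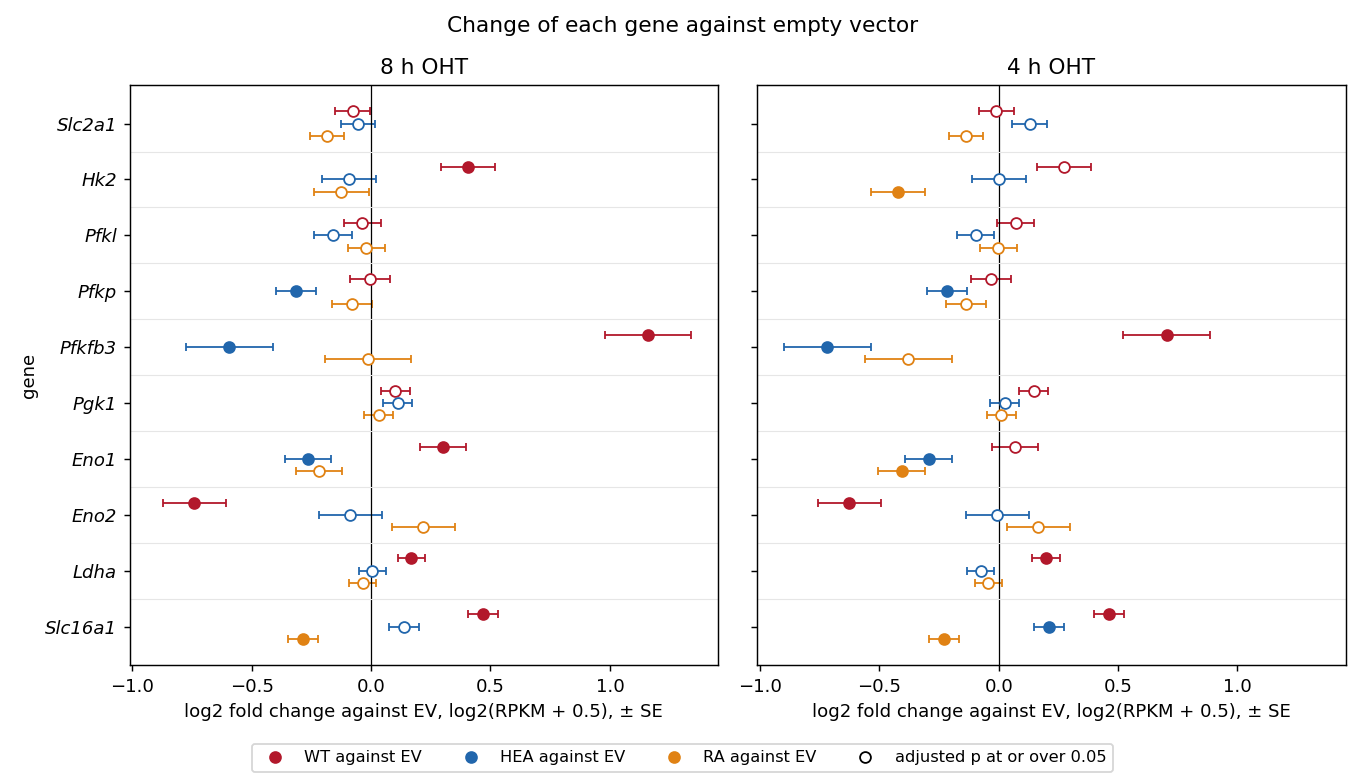
Log2 fold change of each gene against EV on the scale of log2(RPKM + 0.5), ± SE, for WT (red), HEA (blue) and RA (orange) at 8 h (left) and 4 h (right), with filled points where the adjusted p from limma was under 0.05. Pfkfb3 lies farthest to the right in WT, at 1.16 at 8 h, and on the other side of 0 in HEA, at -0.59.

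Slc2a1 encodes GLUT1, the carrier through which most cultured cells take up glucose. At 8 h it was at 55.5, 59.2 and 62.5 RPKM in WT, 59.5, 63.7 and 56.97 in HEA and 54.5, 53.1 and 56.8 in RA, against 62.3, 64.5 and 60.2 in EV. Values at 4 h were 65.2, 64.7 and 61.7 RPKM in WT, 72.3, 76.7 and 62.8 in HEA and 54.95, 64.6 and 56.2 in RA, against 65.1, 67.2 and 60.8 in EV. WT and EV overlapped at both times, and RA at 8 h lay wholly below EV. No form passed against EV. The log2 fold change in WT was -0.08 ± 0.072 at 8 h, with a 95% interval of -0.23 to 0.07, and -0.01 ± 0.072 at 4 h, with an interval of -0.16 to 0.14. In RA at 8 h it was -0.18 ± 0.072 (interval -0.33 to -0.03; adjusted p = 0.176, limma). HEA was above RA at 4 h by 0.27 ± 0.072 (adjusted p = 0.00493, limma), although 2 of its 3 libraries were clear of RA and the third was not, and a fit of those groups alone gave 0.0526.

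Hk2 encodes hexokinase 2, the inducible enzyme that traps glucose in the cell as glucose 6-phosphate. It stood at 43.7, 41.8 and 47.9 RPKM in WT, 31.9, 34 and 28.3 in HEA and 30.1, 30.5 and 31.3 in RA, against 31.9, 33.7 and 34.5 in EV at 8 h. The WT libraries were above all others of that time. The log2 fold change of WT against EV was 0.41 ± 0.11 (adjusted p = 0.0083, limma), a mean 33.2% higher, and it passed in all 17 alternatives. WT was also above HEA by 0.50 ± 0.11 (adjusted p = 0.00107) and above RA by 0.53 ± 0.11 (adjusted p = 0.000811), both by limma.

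At 4 h Hk2 was at 45.7, 44.8 and 35.97 RPKM in WT, 40.1, 30.3 and 34.1 in HEA and 26.3, 22.4 and 28.8 in RA, against 30.3, 39.3 and 34.8 in EV. Replicate 3 of WT, one of the libraries farthest from its group, was within the EV range. WT against EV did not pass (0.27 ± 0.11, interval 0.04 to 0.51, adjusted p = 0.0818 by limma), and without that library the adjusted p was 0.0293. All RA libraries were below all EV libraries, and Hk2 fell in RA by 0.42 ± 0.11 on the log2 scale (adjusted p = 0.0349, limma), a call lost in 9 of 17 alternatives, with adjusted p-values up to 0.203. Between forms, WT was above RA by 0.70 ± 0.11 (adjusted p = 9e-05) and HEA above RA by 0.42 ± 0.11 (adjusted p = 0.00462) by limma. Both calls passed in all 17 alternatives. The gap between HEA and RA was no larger than the fall of RA against EV. Its adjusted p is smaller because p-values were adjusted within each comparison. In HEA against RA 18% of all tested genes were higher and 28.3% lower, and in RA against EV 2.58% and 2.73%.

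Pfkl and Pfkp encode the liver-type and platelet-type subunits of phosphofructokinase 1, the committed step of glycolysis. Pfkl was between 44.7 and 61.4 RPKM over all libraries. At 8 h it averaged 53.7 ± 2.17 RPKM in WT, 49.5 ± 4.68 in HEA and 54.4 ± 3.32 in RA, against 55.2 ± 2.49 in EV (SD, n = 3 each). It passed in no comparison, and the interval of its log2 fold change in WT against EV was -0.20 to 0.13 at 8 h and -0.09 to 0.23 at 4 h.

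Pfkp, the scarcer of this pair, was at 4.71, 4.83 and 4.43 RPKM in WT, 3.6, 3.86 and 3.53 in HEA and 4.62, 4.08 and 4.51 in RA, against 4.76, 4.83 and 4.44 in EV at 8 h. HEA lay below all other libraries of that time, while WT and EV overlapped. Pfkp fell in HEA, with a log2 fold change of -0.31 ± 0.084 against EV (adjusted p = 0.00418, limma). WT was above HEA by 0.31 ± 0.084 (adjusted p = 0.00437, limma; 0.0671 in a fit of these groups alone), and its interval against EV was -0.18 to 0.17. Libraries at 4 h read 4.38, 4.44 and 4.18 RPKM in WT, 3.66, 3.895 and 3.72 in HEA and 4.07, 3.87 and 4.05 in RA, against 4.34, 4.31 and 4.702 in EV. HEA was again wholly below EV, with a log2 fold change of -0.22 ± 0.084 (adjusted p = 0.0415, limma), but 11 of 17 alternatives lost the call, up to an adjusted p of 0.228. The lower level in HEA than in RA at 8 h (-0.24 ± 0.084, adjusted p = 0.0266) was lost in 8 of 17. Of the 50-base words in the longest coding transcript of Pfkp 17.1% also occur in transcripts of Pitrm1, so reads of these neighbours may be mixed.

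Pfkfb3 encodes the enzyme that makes fructose 2,6-bisphosphate, the strongest known activator of phosphofructokinase 1. It moved more than any other of the 10 genes and in opposite directions in WT and HEA. At 8 h it was at 14.6, 12.2 and 17.7 RPKM in WT, 3.89, 3.27 and 5.01 in HEA and 7.12, 6.37 and 5.31 in RA, against 5.92, 5.94 and 7.07 in EV. WT lay wholly above EV, HEA wholly below it, and RA overlapped with it. The mean was 135% higher in WT than in EV, a log2 fold change of 1.16 ± 0.18 (adjusted p = 5.04e-05, limma). Pfkfb3 fell in HEA by 0.59 ± 0.18 on the log2 scale (adjusted p = 0.0109, limma), and this call was lost without EV replicate 3 (0.0521) or HEA replicate 2 (0.065).

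At 4 h Pfkfb3 was at 14.2, 11.5 and 10.1 RPKM in WT, 3.59, 3.97 and 4.81 in HEA and 6.98, 3.996 and 5.34 in RA, against 6.84, 7.67 and 6.695 in EV. The order of the groups was the one seen at 8 h, with WT above and HEA below EV and no overlap for either. The log2 fold changes against EV were 0.70 ± 0.18 in WT (adjusted p = 0.00704) and -0.72 ± 0.18 in HEA (adjusted p = 0.00331), both by limma and both passing in all 17 alternatives. RA gave -0.01 ± 0.18 at 8 h (interval -0.39 to 0.37) and -0.38 ± 0.18 at 4 h (interval -0.76 to -0.00, adjusted p = 0.245). Set directly against each other, WT exceeded HEA by 1.75 ± 0.18 at 8 h (adjusted p = 9.53e-08) and by 1.42 ± 0.18 at 4 h (adjusted p = 2.17e-06), and RA by 1.17 ± 0.18 and 1.08 ± 0.18 at these times (adjusted p = 3.21e-05 and 0.000117). HEA was below RA at 8 h (-0.58 ± 0.18, adjusted p = 0.0132), a call lost without HEA replicate 2 (0.0772) or RA replicate 1 (0.064). The larger fold change of WT at 8 h than at 4 h was not shown: the difference was 0.46 ± 0.26, with an interval of -0.08 to 0.99 (adjusted p = 0.469, limma).

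Pgk1 encodes phosphoglycerate kinase 1, which makes the first ATP of the pathway. At 8 h the libraries were at 115, 117 and 127 RPKM in WT, 118, 120.0 and 123 in HEA and 121, 111 and 109.6 in RA, against 113, 108 and 113 in EV. WT and HEA lay just above all EV libraries, by margins smaller than the range within WT. The log2 fold changes were 0.10 ± 0.06 in WT (interval -0.03 to 0.23, adjusted p = 0.208) and 0.11 ± 0.06 in HEA (interval -0.01 to 0.24, adjusted p = 0.136), neither passing by limma. HEA passed in 3 of 17 alternatives, down to an adjusted p of 0.00826 with quantile normalisation. At 4 h WT averaged 128 ± 4.27 RPKM and EV 115 ± 8.37 (SD, n = 3 each; adjusted p = 0.0804, limma).

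Pgk1 had 1.28 reads per base of gene, the most of the 10 genes, and Ldha 0.957. Its recovered reads ran from 2140 to 2415 over libraries of 9.82 to 12.8 M reads. They averaged 2326 in WT and 2332 in EV at 8 h. An RPKM divides such reads by the total, and the mean totals were 10.8 M in WT and 11.7 M in EV at 8 h and 10.1 M in WT and 11.1 M in EV at 4 h. The part of the library totals in the small RPKM differences of Pgk1 and Ldha was not tested as such. With the dependence on reads per base taken out, an alternative added after the data were seen, the log2 fold change of WT against EV at 8 h was 0.05 for Pgk1 (adjusted p = 0.221) and 0.14 for Ldha (adjusted p = 0.00471) by limma. Of the 50-base words of the longest coding Pgk1 transcript 67.9% also occur in Pgk1-rs7, so reads of Pgk1 may be split or shared with that copy.

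Eno1 and Eno2 encode the ubiquitous and the neuronal form of enolase, which makes phosphoenolpyruvate, and they went opposite ways in WT. Eno1 was at 20.04, 20.6 and 20.4 RPKM in WT, 13.4, 14.4 and 12.97 in HEA and 13.9, 14.5 and 13.7 in RA, against 15.8, 17.8 and 15.7 in EV at 8 h. Every WT library was above EV, and every HEA and RA library below it. In recovered reads WT, at 679 to 766, and EV, at 577 to 733, overlapped. Such reads are not scaled to library size, and the mean totals were 10.84 M in WT and 11.65 M in EV. Eno1 rose in WT by 0.30 ± 0.097 on the log2 scale (adjusted p = 0.0199, limma), a call lost without EV replicate 1 (0.0712) or EV replicate 3 (0.0776). In HEA it fell by 0.27 ± 0.097 (adjusted p = 0.0291), which 6 of 17 alternatives lost, among them quantile normalisation (0.086) and median centring (0.126). RA did not pass (-0.22 ± 0.097, interval -0.42 to -0.02, adjusted p = 0.241).

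At 4 h Eno1 was at 21.3, 20.5 and 16.2 RPKM in WT, 16.9, 14.3 and 13.5 in HEA and 14.98, 13.04 and 13.03 in RA, against 17.3, 19.2 and 18.3 in EV. WT overlapped with EV, through replicate 3, while HEA and RA lay wholly below it. The log2 fold changes were 0.07 ± 0.097 in WT (interval -0.13 to 0.27, adjusted p = 0.642), -0.29 ± 0.097 in HEA (adjusted p = 0.0185) and -0.41 ± 0.097 in RA (adjusted p = 0.019) by limma. Both falls were lost in 5 of 17 alternatives, up to 0.0864 for HEA and 0.107 for RA. Between forms the gap was firmer at 8 h, where WT exceeded HEA by 0.57 ± 0.097 (adjusted p = 5.81e-05) and RA by 0.52 ± 0.097 (adjusted p = 0.000222). At 4 h these differences were 0.36 ± 0.097 (adjusted p = 0.00423, and 0.0865 in a fit of these groups alone) and 0.48 ± 0.097 (adjusted p = 0.000747).

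The Eno1 values carry a further limit. Of the 50-base words of its longest coding transcript 70.5% also occur in Eno1b, and reads of these near-identical copies could be split between them or dropped. Eno1b, chosen for this reason after its values were seen, averaged 28.4 ± 0.89 RPKM in WT and 27.8 ± 2.27 in EV at 8 h (SD, n = 3 each), a log2 fold change of 0.03 ± 0.083 (interval -0.15 to 0.20, adjusted p = 0.827, limma). How much of either value belongs to which copy cannot be told apart from RPKM.

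Eno2 was the rarest of the 10 transcripts, with 40 to 120 recovered reads a library. At 8 h it stood at 1.87, 1.38 and 2.07 RPKM in WT, 2.83, 2.72 and 3.67 in HEA and 4.07, 4.101 and 3.503 in RA, against 3.65, 3.02 and 3.17 in EV. At 4 h its values were 2.02, 1.52 and 1.63 RPKM in WT, 2.79, 3.13 and 2.8 in HEA and 3.57, 3.19 and 3.26 in RA, against 3.07, 2.86 and 2.81 in EV. All WT libraries were below all libraries of the other forms and of EV at both times. Eno2 fell in WT by 0.74 ± 0.13 on the log2 scale at 8 h (adjusted p = 0.000197) and by 0.63 ± 0.13 at 4 h (adjusted p = 0.00155), by limma and in all 17 alternatives. The mean WT level was 1.78 ± 0.36 RPKM, against 3.28 ± 0.33 in EV, at 8 h (SD, n = 3 each). HEA and EV overlapped, with intervals of -0.36 to 0.19 at 8 h and -0.28 to 0.27 at 4 h. RA gave 0.22 ± 0.13 at 8 h (interval -0.06 to 0.49, adjusted p = 0.413). WT was below HEA by a log2 difference of -0.65 ± 0.13 at 8 h (adjusted p = 0.000351) and below RA by -0.96 ± 0.13 (adjusted p = 8.42e-06).

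Ldha encodes the muscle-type subunit of lactate dehydrogenase, which turns pyruvate into lactate. Its libraries were at 95.6, 92.7 and 100.1 RPKM in WT, 85.1, 85.9 and 86.1 in HEA and 84.6, 83.7 and 81.8 in RA, against 87.8, 81.1 and 87.4 in EV at 8 h. At 4 h they were at 96.3, 99.7 and 101 RPKM in WT, 85.5, 78.3 and 82.1 in HEA and 74.96, 90.03 and 86.99 in RA, against 82.5, 90.9 and 85.8 in EV. At both times WT lay wholly above EV, and HEA and RA overlapped with EV. Ldha rose in WT by 0.17 ± 0.058 at 8 h (adjusted p = 0.0272) and by 0.20 ± 0.058 at 4 h (adjusted p = 0.0151) by limma. These are the smallest rises called among the 10 genes, and 5 of 17 alternatives lost the call at 8 h (up to 0.121, without EV replicate 2) and 3 at 4 h (up to 0.0738, in a fit of the 2 groups alone). In recovered reads the groups overlapped at 8 h, with 1949 to 2058 in WT and 1880 to 1952 in EV, and not at 4 h, with 1919 to 1961 in WT and 1793 to 1890 in EV. Those reads are not scaled to library size. The mean totals were 10.84 M in WT and 11.65 M in EV at 8 h, and 10.11 M and 11.14 M at 4 h.

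Ldha was also higher in WT than in either mutant. WT exceeded HEA by 0.16 ± 0.058 at 8 h (adjusted p = 0.0239, lost in 5 of 17 alternatives) and 0.27 ± 0.058 at 4 h (adjusted p = 0.000589). It exceeded RA by 0.20 ± 0.058 at 8 h (adjusted p = 0.00724) and 0.24 ± 0.058 at 4 h (adjusted p = 0.00277, and 0.0747 in a fit of these groups alone). The intervals against EV at 8 h were -0.11 to 0.13 in HEA and -0.15 to 0.09 in RA. Among the 50-base words of the longest coding Ldha transcript 16.6% occur in other genes, the most of them, 6.23%, in Gm5452.

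Slc16a1 encodes MCT1, a carrier that moves lactate and a proton across the cell membrane. It was the only one of the 10 for which all 3 forms differed from each other at both times in the direct tests by limma. At 8 h it was at 75.1, 72.7 and 69.9 RPKM in WT, 59.02, 55.6 and 58.01 in HEA and 41.9, 43.8 and 42.8 in RA, against 53.1, 52.6 and 51.1 in EV. WT lay at the top, HEA next, then EV, then RA, and no 2 of these groups overlapped. The log2 fold change against EV was 0.47 ± 0.063 in WT (adjusted p = 9.83e-06), 0.14 ± 0.063 in HEA (interval 0.01 to 0.27, adjusted p = 0.0807) and -0.28 ± 0.063 in RA (adjusted p = 0.0192) by limma. The WT call passed in all 17 alternatives. HEA passed in 5 of 17, down to 0.00513 with quantile normalisation, and the RA call was lost in 5, each without a single library, up to 0.106 without RA replicate 1.

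At 4 h Slc16a1 was at 69.5, 76.02 and 84.8 RPKM in WT, 62.5, 66.6 and 63.5 in HEA and 44.1, 51.5 and 46.4 in RA, against 56.6, 53.3 and 56.5 in EV. The groups stood in the order seen at 8 h, again without overlap. Slc16a1 rose in WT by 0.46 ± 0.063 (adjusted p = 2.54e-05) and in HEA by 0.21 ± 0.063 (adjusted p = 0.0109), and it fell in RA by 0.23 ± 0.063 (adjusted p = 0.0404), all on the log2 scale by limma. The calls in WT and HEA passed in all 17 alternatives, and that in RA was lost in 9, up to 0.192. In the direct tests, WT exceeded HEA by 0.33 ± 0.063 at 8 h (adjusted p = 0.000195) and 0.25 ± 0.063 at 4 h (adjusted p = 0.00274), which at 4 h was lost once the dependence on reads per base was taken out (0.0638). HEA exceeded RA by 0.42 ± 0.063 (adjusted p = 1.95e-05) and 0.44 ± 0.063 (adjusted p = 1.41e-05) at 8 h and 4 h. The gap between WT and RA was 0.75 ± 0.063 at 8 h and 0.69 ± 0.063 at 4 h.

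Counted over the 10 genes, WT stood above HEA for 6 and below it for 1 at 8 h, where 24.6% of all tested genes were higher and 23.4% lower. At 4 h the counts were 4 and 1, where 26.9% were higher and 22.6% lower. WT stood above RA for 5 and below it for 1 at each time, where 17.3% were higher and 24.4% lower at 8 h and 15% and 19.9% at 4 h. The 5 higher than RA were Hk2, Pfkfb3, Eno1, Ldha and Slc16a1 at both times. HEA was above RA for 1 gene and below it for 2 at 8 h, where 17.9% were higher and 27% lower. At 4 h it was above RA for 3 genes, Slc2a1, Hk2 and Slc16a1, and below it for none, where 18% were higher and 28.3% lower. Each form enters 2 of these comparisons, so the counts are not independent.

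None of the 10 genes passed between 8 h and 4 h in any group, where 8.46% of all tested genes passed in WT, 3.33% in HEA, 0.22% in RA and 0.0245% in EV. At an unadjusted p under 0.05 limma gave 2 of the 10 in HEA, 2 in RA and 0 in WT and EV, with no share of all tested genes counted. Voom on recovered reads called 0 in each. The nearest was Slc2a1 in HEA, at 60.03 ± 3.38 RPKM at 8 h and 70.6 ± 7.07 at 4 h (SD, n = 3 each), a log2 difference of -0.23 ± 0.072 (adjusted p = 0.0849, limma), which passed without HEA at 4 h replicate 3 (0.0199). No difference between the effects at 8 h and at 4 h passed for any of the 10 genes in WT, HEA or RA. Such differences passed for 0.0163% of tested genes in WT and HEA and for none in RA, and 0 of the 10 were at an unadjusted p under 0.05 in each.

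Set beside the promoter windows, all 3 genes with CACGTG rose in WT at 8 h, and so did 2 of the 7 without it, while 1 of these 7 fell. Among all tested genes with a window, 20.8% of those with CACGTG rose and 18.1% fell in that comparison, and 15.1% of those without it rose and 20.9% fell. The 3 rose again in WT at 4 h, and of the 7 none rose and 1 fell. There 17.5% of tested genes with CACGTG rose and 10.9% fell, and 11.4% of those without it rose and 15.5% fell. In HEA at 8 h 1 of the 3 and 2 of the 7 fell and none rose. There 17.1% of tested genes with CACGTG rose and 36.1% fell, and 20.9% of those without it rose and 27.6% fell. At 4 h in HEA 1 of the 3 rose and 1 fell, and 2 of the 7 fell. The shares there were 15.7% higher and 34.3% lower with CACGTG, and 18.1% and 25.7% without it. In RA 1 of the 3 fell at each time, and 0 of the 7 fell at 8 h and 2 at 4 h. The shares lower in RA were 1.59% with CACGTG and 1.21% without it at 8 h, and 3.17% and 2.58% at 4 h. The 3 genes were few and are given as a description with no test.

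Other genes of glucose metabolism were taken from lists by role. Over all tested genes at 8 h, 15.2% rose and 20.1% fell in WT, 20.2% rose and 27.5% fell in HEA, and 1.49% rose and 1.29% fell in RA. The counts of each list at 8 h stand beside these shares, and a count near them is no result about the list. Of 15 further tested genes of the glycolytic enzyme list, 4 rose and 1 fell in WT at 8 h, 3 rose and 2 fell in HEA, and none passed in RA by limma at 8 h. Pkm, which encodes a pyruvate kinase, was at 117, 119 and 132 RPKM in WT and 124, 119 and 117 in HEA, against 110.0, 105 and 107 in EV. It passed in WT and in HEA (0.19 ± 0.058, adjusted p = 0.0165 in WT and 0.16 ± 0.058, adjusted p = 0.0293 in HEA, lost in 3 and 5 of 17 alternatives). Minpp1, a phosphatase that acts on 2,3-bisphosphoglycerate, rose in WT (0.25 ± 0.066, adjusted p = 0.00624). Pfkm, the muscle-type phosphofructokinase, averaged 26.7 ± 2.42 RPKM in WT and 40.5 ± 1.395 in HEA, against 22.2 ± 1.52 in EV (SD, n = 3 each). It rose in HEA (0.86 ± 0.098, adjusted p = 6.41e-07), where Pfkp fell, and in WT by less (0.26 ± 0.098, adjusted p = 0.0438, lost in 7 of 17 alternatives). Gpi1, glucose 6-phosphate isomerase, rose in HEA (0.48 ± 0.057, adjusted p = 1.13e-06).

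Among 11 tested regulators of glycolytic flux, 1 rose and 3 fell in WT, 2 rose and 2 fell in HEA, and 2 rose and 2 fell in RA at 8 h. Pfkfb4, a relative of Pfkfb3 that acts on the same molecule, was at 6.61, 7.36 and 6.63 RPKM in WT and 5.87, 6.49 and 6.18 in HEA, against 14.1, 14.1 and 14 in EV. It fell in WT (-0.99 ± 0.087, adjusted p = 5.24e-08), where Pfkfb3 rose, and in HEA (-1.13 ± 0.087, adjusted p = 3.71e-09). Pdk4, a kinase that holds back pyruvate dehydrogenase, fell in WT (-1.23 ± 0.18, adjusted p = 2.39e-05). Pdp2, a phosphatase that acts the opposite way on that enzyme, fell in HEA (-1.002 ± 0.084, adjusted p = 1.13e-08). 9630033F20Rik, now named Tigar, which lowers fructose 2,6-bisphosphate, averaged 17.01 ± 1.64 RPKM in WT and 9.92 ± 0.27 in EV (SD, n = 3 each) and rose in WT (0.75 ± 0.13, adjusted p = 0.000192).

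The list of other carriers of glucose, lactate and pyruvate had 9 tested genes, of which 1 rose and 2 fell in WT, 4 rose and 2 fell in HEA and none passed in RA at 8 h. Slc2a13, a carrier of inositol, was at 0.562, 0.948 and 1.17 RPKM in WT and 10.97, 9.04 and 10.7 in HEA, against 1.17, 1.64 and 1.52 in EV, and rose in HEA (2.47 ± 0.22, adjusted p = 2.56e-08). Slc2a10, a sugar carrier, fell in WT (-0.63 ± 0.12, adjusted p = 0.00041) and in HEA (-1.20 ± 0.12, adjusted p = 1.26e-07). Slc2a8, a glucose carrier of inner membranes, fell in WT (-0.64 ± 0.17, adjusted p = 0.00583, lost in 1 of 17 alternatives) and rose in HEA (0.78 ± 0.17, adjusted p = 0.00076). Slc16a8, a lactate carrier at a low level of 2.05, 1.78 and 3.04 RPKM in WT and 1.28, 1.16 and 1.102 in EV, passed in WT (0.71 ± 0.25, adjusted p = 0.0301), a call lost in 6 of 17 alternatives.

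In the pentose phosphate pathway, which branches off at glucose 6-phosphate, 1 of 10 tested genes rose in WT and none fell, 1 rose and 3 fell in HEA and none passed in RA at 8 h. Rpia, ribose 5-phosphate isomerase, was at 12.97, 10.8 and 10.8 RPKM in WT and 5.43, 6.32 and 6.09 in HEA, against 7.15, 6.997 and 7.12 in EV. It rose in WT (0.66 ± 0.09, adjusted p = 1.05e-05) and fell in HEA (-0.24 ± 0.09, adjusted p = 0.034, lost in 9 of 17 alternatives). Prps1, which makes the ribose donor of nucleotide synthesis, fell in HEA (-0.75 ± 0.17, adjusted p = 0.0012). H6pd, a glucose 6-phosphate dehydrogenase of the endoplasmic reticulum, rose in HEA (0.31 ± 0.11, adjusted p = 0.021, lost in 3 of 17 alternatives). Taldo1, transaldolase, did not pass in WT (-0.19 ± 0.072, interval -0.34 to -0.03).

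Among 11 tested genes of gluconeogenesis and glycogen, 1 rose and 4 fell in WT, 4 rose and 3 fell in HEA and 1 rose in RA at 8 h. Pck2, the mitochondrial phosphoenolpyruvate carboxykinase, fell in WT (-0.68 ± 0.12, adjusted p = 0.000132). Gys1, the muscle glycogen synthase, stood in WT at a log2 fold change against EV of -0.45 ± 0.16 (adjusted p = 0.0306, lost in 8 of 17 alternatives). Pcx, pyruvate carboxylase, was at 36.3, 35.8 and 37.02 RPKM in HEA and 20.8, 18.4 and 17.7 in RA, against 12.5, 11.2 and 11.8 in EV, and rose in both (1.59 ± 0.11, adjusted p = 1.08e-09 in HEA and 0.66 ± 0.11, adjusted p = 0.00355 in RA). G6pc3, a glucose 6-phosphatase, fell in HEA (-0.46 ± 0.084, adjusted p = 0.00017).

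Of 18 tested targets of HIF outside glycolysis, 3 rose and 5 fell in WT, 7 rose and 4 fell in HEA and none passed in RA at 8 h. The counts in WT are near the 15.2% and 20.1% of all tested genes. Car12, a carbonic anhydrase, was at 4.38, 3.23 and 2.71 RPKM in WT and 1.92, 2.12 and 1.58 in HEA, against 0.329, 0.357 and 0.252 in EV, and rose in both (2.26 ± 0.18, adjusted p = 1.49e-08 in WT and 1.54 ± 0.18, adjusted p = 8.15e-07 in HEA). Stc2, a secreted glycoprotein, rose in WT (1.28 ± 0.17, adjusted p = 7.32e-06), while Kdm3a, a histone demethylase, fell (-0.50 ± 0.075, adjusted p = 3.04e-05). P4ha1, a subunit of prolyl 4-hydroxylase, rose in HEA (0.42 ± 0.053, adjusted p = 1.79e-06). Of 7 tested genes on the list of the glucose-sensing factors of the MondoA family, of HIF and of their targets, 2 rose and 1 fell in WT, 3 rose and 1 fell in HEA and none passed in RA. Mlxip, which encodes MondoA, rose in WT (0.88 ± 0.15, adjusted p = 0.000109), and its partner Mlx fell in HEA (-0.67 ± 0.14, adjusted p = 0.000639). Arrdc4, a known MondoA target, rose in WT (0.68 ± 0.14, adjusted p = 0.000843) and in HEA (0.62 ± 0.14, adjusted p = 0.00139). Hif1a had -0.33 ± 0.11 in WT (adjusted p = 0.0295, lost in 5 of 17 alternatives).

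The median log2 fold change in WT at 8 h was 0.03 for the enzymes, -0.21 for the regulators, -0.22 for the carriers, 0.10 for the pentose phosphate genes, -0.19 for gluconeogenesis and glycogen, -0.05 for HIF targets and -0.12 for the MondoA and HIF factors, against -0.02 over all tested genes. At 4 h the shares of all tested genes were 11.6% higher and 14.4% lower in WT, 17.7% and 25.5% in HEA and 2.58% and 2.73% in RA. The counts of the lists at 4 h by limma, higher before lower, stand beside these shares and are given as a description. The glycolytic enzymes had 2 higher and 1 lower in WT, 2 higher and 3 lower in HEA and none in RA. For the regulators the counts were 2 and 3 in WT, 2 and 2 in HEA and 0 and 1 in RA. Carriers had 0 and 2 in WT, 4 and 1 in HEA and none in RA. The pentose phosphate genes had 1 and 0 in WT, 1 and 3 in HEA and none in RA. Genes of gluconeogenesis and glycogen had 0 and 3 in WT, 3 and 2 in HEA and none in RA. HIF targets had 4 and 2 in WT, 7 and 3 in HEA and 0 and 2 in RA. The list of MondoA and HIF factors had 1 and 1 in WT, 1 and 1 in HEA and 2 and 0 in RA. Where RA gave no call in a list at 8 h, an unadjusted p under 0.05 was seen for 2 enzymes, 2 carriers, 2 pentose phosphate genes, 5 HIF targets and 2 MondoA and HIF factors, and voom called 1 gene of the last list and 0 in the others. At 4 h these unadjusted counts in RA were 2 enzymes, 1 carrier, 1 pentose phosphate gene and 2 genes of gluconeogenesis and glycogen, and voom called 1 of the last list and 0 in the others. For the unadjusted and voom counts no share of all tested genes was counted, so they are a description only.

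**Figure D4:**
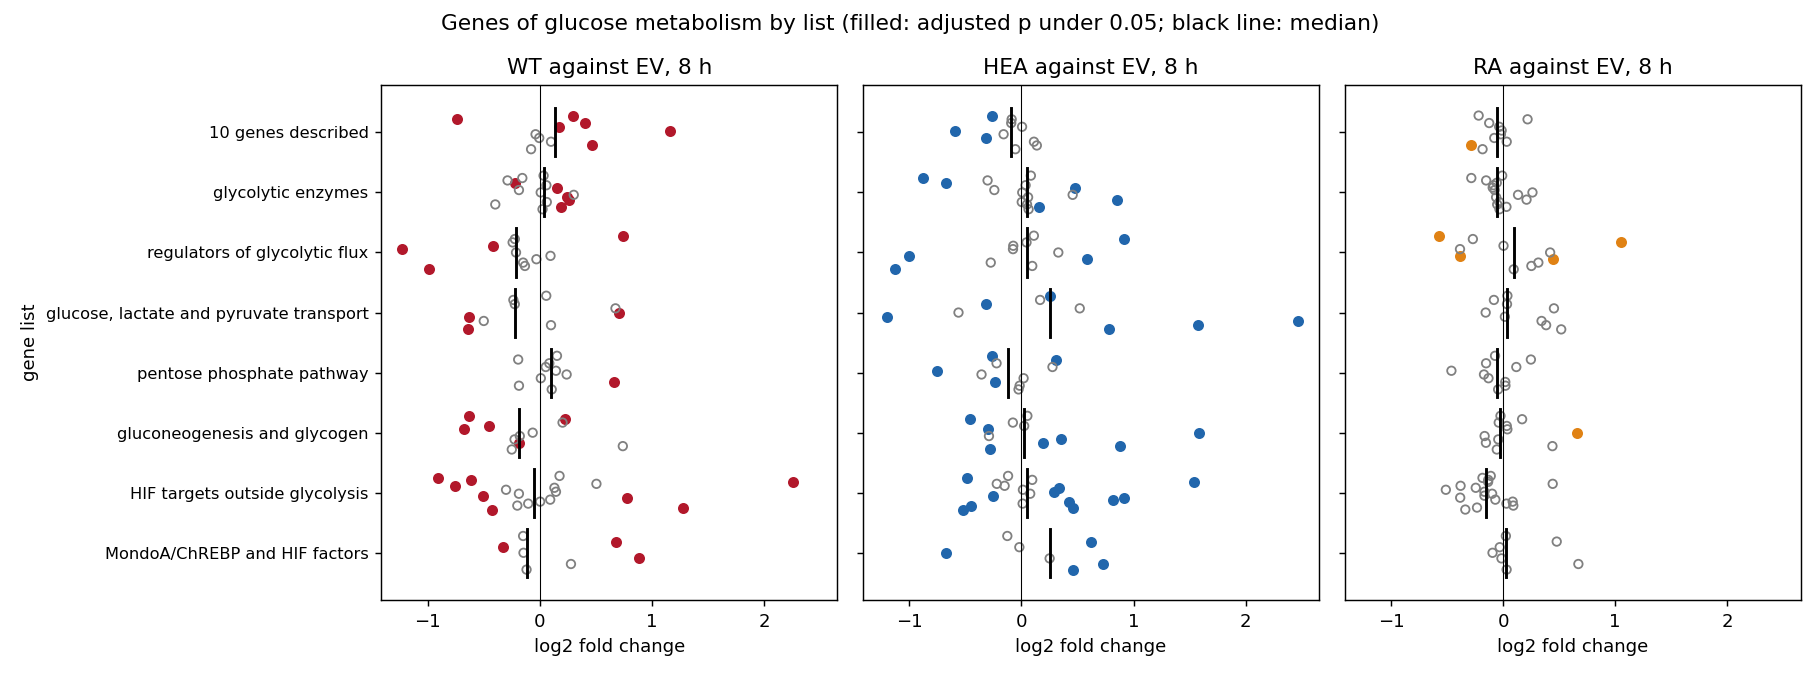
Log2 fold change against EV at 8 h of every tested gene in the 8 lists, one row a list, for WT, HEA and RA, with filled points where the adjusted p from limma was under 0.05 and a black line at the median. In WT the 10 genes described here had a median of 0.13 and the other lists had medians from -0.22 to 0.10. Genes and lists were chosen with earlier results of these data known.

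Some genes outside the pathway had nearly the same pattern over the 8 groups as the gene that rose most and the gene that fell most in WT at 8 h. Likeness was the root mean square difference of the group means of log2(RPKM + 0.5), each gene centred on its own mean. The genes nearest to Pfkfb3 were Arhgap4, at 0.089, Atxn7l2, at 0.10, and Eef2k, at 0.10, beside a root mean square of 0.59 for Pfkfb3 itself. Eef2k had a log2 fold change of 1.17 in WT and -0.66 in HEA against EV at 8 h. The genes nearest to Eno2 were Mroh4, at 0.056, Arhgap23, at 0.087, and Tmem119, at 0.087, beside 0.34 for Eno2 itself. These values describe the groups and say nothing of shared control.

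The authors' deposited table of comparisons with EV gives its own calls for the 10 genes. At 8 h the authors' deposited table has 4 higher and 1 lower in WT, without Ldha, whose adjusted p is 0.0573 there. For HEA at 8 h the authors' deposited table has 2 higher and 3 lower, the higher ones being Slc16a1 (log2 fold change 0.18, adjusted p = 0.00968) and Pgk1 (0.15, adjusted p = 0.0332), which did not pass here. For RA at 8 h it adds Slc2a1 in the authors' deposited table (-0.19, adjusted p = 0.0217) to Slc16a1. At 4 h the authors' deposited table has 2 higher and 1 lower in WT, 1 and 1 in HEA and 0 and 2 in RA, and calls no gene that was not called here. It leaves out calls made here at 4 h, with its own adjusted p in brackets. These are Ldha in WT (0.11), Pfkp (0.203) and Eno1 (0.134) in HEA, and Slc16a1 in RA (0.102). Ldha in WT is thus called there at neither time.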

How the data were processed

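RNA-seq libraries were made from 3T9 fibroblasts with a stranded total RNA kit, per the labels' protocols, 3 in each of 8 groups. The authors deposited RPKM values per gene, and log2 fold changes and adjusted p-values of each MycER form against EV, per the file headers. The build mm9 and the tools featureCounts 1.4.5-p1, TopHat2 2.0.8, TopHat, DESeq2 and SAMtools are named, with no roles, per the submitters' processing notes. Neither the strand setting nor the annotation is stated there, so reads of overlapping or antisense genes may be mixed.

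From the deposited RPKM, log2(RPKM + 0.5) was fitted with limma 3.58.1 (trended variance, R 4.3.3) over all 24 libraries and 8 group means, for the 12268 genes at 1 RPKM or more in at least 3 libraries, which included all 10 genes described. The design leaves 16 residual degrees of freedom. Adjustment over genes used the Benjamini-Hochberg method, within each comparison. The same fold change and SE can therefore pass in a comparison with many calls and not in one with few. Whole reads were recovered from the steps of the RPKM values (100% of 362673 values above 0 came out whole within 0.01 reads), giving 9.82 to 12.8 M reads a library. They were used for depth, reads per base, group ranges and means of reads and a voom alternative. The main fit did not use them and was made on the deposited RPKM. The fit was also run on simulated reads, with the same relative spread for every gene and independent libraries. That setting is simpler than these data, so the run does not vouch for the calls given here. Promoter windows came from RefSeq's GRCm38.p6 table and 50-base words from GENCODE M21 transcripts, used with no coordinates of the files' build. The words of each gene are those of its longest coding transcript, which can differ from the sequence behind the RPKM. For Eno1 that transcript has 2027 bases, against a length of 3305 fitted from the RPKM. Tables were handled with Python 3.11.15, numpy 2.4.6 and pandas 2.3.3, and plots drawn with matplotlib 3.10.9.

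The genes and lists were chosen with earlier results of these data known. Genes named by rule were the 10, up to 3 per list with the smallest p in WT and up to 2 in HEA against EV at 8 h, and the 3 genes nearest in pattern to the member highest and to the member lowest in WT. A gene that this rule names is not reported here. The labels number the libraries 1 to 3 without saying that they are separate cultures, and the p-values then reflect no more than the variation among these libraries, which may be technical. Alternatives changed the pseudocount, the filter, the scaling, the trend, the libraries fitted and the block on replicate number, and left out each library in turn.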

Additional observations from a re-analysis of the deposited data

How the results depend on the processing

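Recomputed under each alternative, the log2 fold changes of the 10 genes and of the named list genes never turned their direction where called: of the values under alternatives, 6074 kept their side of the threshold, 220 lost a call and 74 gained one. Counts of the 10 genes called stayed within 1.5 times in all comparisons except these. In a fit of only the groups compared, HEA against EV gave 5 at 8 h (3 reported) and 2 at 4 h (4 reported), and RA against EV gave 2 at 8 h (1 reported) and 0 at 4 h (3 reported); that fit has fewer libraries behind its spread. With no filter on low values, RA against EV at 4 h gave 1. Leaving out 1 library at a time gave 2 to 3 for HEA against EV at 4 h, 0 to 1 for RA against EV at 8 h, 0 to 2 for RA against EV at 4 h, 1 to 3 for HEA against RA at 8 h (3 reported, 1 without RA replicate 1) and 0 to 1 for HEA at 8 h against 4 h (0 reported, 1 without HEA at 4 h replicate 3). For HEA at 4 h the count of 2 came without EV replicate 2 or HEA replicate 2. For RA at 4 h it was 0 without EV replicate 2 or 3, and for RA at 8 h it was 0 without EV replicate 1, 2 or 3 or RA replicate 1 or 3. The cause of the changes was not tested.

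With the replicate number as a block, RA against EV at 4 h gave 1 called gene (3 reported), and the other counts stayed within 1.5 times. Libraries of the same number did not deviate together throughout. The correlation of their deviations lay between -0.60 and 0.41, and no comparison had all 3 above 0.1, so the numbers were not taken to pair the libraries. At 4 h replicate 3 gave 0.329 in WT against EV, 0.315 in HEA against EV and 0.407 in WT against HEA. Replicate 1 gave -0.359, -0.221 and 0.032 there. These values do not settle whether libraries of the same number share a batch.

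The edgeR and DESeq2 alternatives were not run. The deposited unit is RPKM, and of the methods for counts only voom was used, on the recovered reads. Depth limits Eno2 most, at 40 to 120 reads a library, and for Pgk1 and Eno1 reads shared with near-identical copies limit the values whatever the depth. Ldha, Slc2a1 and Pgk1 differences under about 0.2 on the log2 scale moved across the threshold with the scaling or with a single library.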
